A study of Mus musculus with 2 samples.

Results

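Cells with high counts of Coch and at least 1 count of Tbx3 were examined in tissue labelled olfactory epithelium. A barcode was taken as a cell if it held at least 1000 unique molecular identifiers (UMIs, counted RNA molecules), at least 300 genes and at most 15% UMIs of mitochondrial genes. A cell was a member if it held at least 5 Coch UMIs and at least 1 Tbx3 UMI. Of 23816 cells in all, 137 were members. Mouse 1 gave 123 of 14136 cells, a share of 0.870% with a Clopper-Pearson 95% interval of 0.724% to 1.037%. Mouse 2 gave 14 of 9680 cells, 0.145% with an interval of 0.0791% to 0.243%. The shares differ beyond counting error, but each mouse is 1 library, so mouse, dissection and library cannot be told apart.

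Coch encodes cochlin, a secreted matrix protein best known from the fibrocytes of the inner ear, and also found in the trabecular meshwork of the eye. Tbx3 is a T-box transcription factor that patterns limb, heart and other embryonic tissue. Tnmd, given as a further marker of these cells, encodes tenomodulin, a membrane glycoprotein of tendon and ligament. Mesenchymal cells of the nose include fibroblasts, periosteal cells, cartilage cells and the cells of tendon-like attachments, which build different matrices of collagens, proteoglycans and elastic fibres.

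Both animals were male wildtype C57BL/6J mice, with no treatment and no age in the labels, and each gave 1 droplet library. The tissue was digested with enzymes, sieved and cleared of erythrocytes, and nothing sorted the cells, so each library holds connective tissue and cartilage with the epithelium. Cells numbered 14136 in mouse 1 and 9680 in mouse 2, with 75242309 and 68027119 UMIs and medians of 3908.5 and 5199 UMIs per cell. Members held 755248 UMIs in mouse 1 (median 5284 per cell) and 103367 in mouse 2 (median 6198). Levels below are in CPM, the UMIs of a gene scaled to the same total of UMIs for the summed cells of every group, and 3 UMIs correspond to 3.97 CPM in the members of mouse 1 and 29.0 CPM in mouse 2. The libraries shared 483 cell barcodes, among them 4 members of mouse 1 and 0 of mouse 2.

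Members were set against cells defined by UMI rules on other genes. These were 73 and 25 cells in mouse 1 and mouse 2 with at least 5 Coch UMIs and no Tbx3 UMI, 284 and 289 tenocyte-like cells (Tnmd and Thbs4), 4717 and 2763 chondrocyte-like cells (Acan and Col2a1), and 3892 and 3221 fibroblast-like cells (collagen I, Dcn, and Pdgfra or Lum). Genes used by a rule are given as descriptions and left out of every count of genes called in that comparison. Since mouse 2 gave only 14 members, each comparison is first a description of mouse 1, in which a gene is called if it had at least 50 CPM in 1 of both groups and differed at least 4-fold on the log2(CPM + 1) scale, with mouse 2 beside it. An edgeR quasi-likelihood fit over 10 sums (5 groups from 2 mice, with the mouse as a block) was added after the number of members was seen, and its Benjamini-Hochberg adjusted p-values are printed with that name.

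The start regions of 3 genes that the members carried are shown, since Tbx3 is a DNA-binding protein and these genes were found together in the same cells. Each is the 250 bases before a RefSeq gene start in GRCm38.p6, on the + strand, 5′ to 3′, with a matched motif in capitals. Coch lies at chr12:51593091-51593340, Angpt4 at chr2:151910957-151911206, and the third of 3 listed Cntn1 windows at chr15:92161107-92161356.
Coch: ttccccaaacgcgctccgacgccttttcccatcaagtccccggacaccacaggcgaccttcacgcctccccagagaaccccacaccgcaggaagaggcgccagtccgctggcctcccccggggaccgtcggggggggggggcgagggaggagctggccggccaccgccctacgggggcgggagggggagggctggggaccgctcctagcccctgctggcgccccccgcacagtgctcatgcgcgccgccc
Angpt4: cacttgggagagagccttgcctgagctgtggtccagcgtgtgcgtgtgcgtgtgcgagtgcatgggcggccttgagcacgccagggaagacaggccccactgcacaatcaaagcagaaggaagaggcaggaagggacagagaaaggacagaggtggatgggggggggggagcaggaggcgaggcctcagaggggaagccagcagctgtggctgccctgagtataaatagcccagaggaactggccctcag
Cntn1: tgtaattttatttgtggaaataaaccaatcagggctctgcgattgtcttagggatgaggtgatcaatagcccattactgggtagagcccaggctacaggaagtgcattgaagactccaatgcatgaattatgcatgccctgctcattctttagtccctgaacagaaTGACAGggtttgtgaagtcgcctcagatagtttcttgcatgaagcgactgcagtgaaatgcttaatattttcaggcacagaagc
Both strands were searched for GGTGTGA, a T-box half-site present in 3.33% of 32851 RefSeq promoter windows of this length, and for TGACAG, a core bound by Meis factors present in 15.9% of them. The Coch and Angpt4 windows held no match, and the Cntn1 window held TGACAG, which starts 84 bases before the gene start. The windows of Tnmd and Adgrl3 and the other Cntn1 windows held neither motif, and Tbx3 and Unc5d had no entry. These are letter matches only, and nothing about binding was measured.

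The genes of the rule are given as a description of the cells it chose. A member held a median of 33 Coch UMIs (5 to 208) in mouse 1 and 46.5 (5 to 117) in mouse 2. Tbx3 had a median of 4 UMIs (1 to 40) and 2 UMIs (1 to 11) per member in mouse 1 and mouse 2. Tnmd, which the rule did not use, was found in 116 of 123 members of mouse 1, with a median of 5 UMIs, and in 12 of 14 members of mouse 2, with a median of 11. Its summed level was 1270 CPM (Poisson 95% interval 1191 to 1353) in members of mouse 1 and 1490 CPM (1264 to 1745) in mouse 2, against 39.8 and 49.8 CPM in fibroblast-like cells. Tnmd was not particular to the members. In Coch-high cells without Tbx3 it stood at 1149 and 788 CPM and was found in 72.6% and 68% of cells. The members held 67.0% of all Coch UMIs found in cells of mouse 1 and 44.1% in mouse 2. Of the Tbx3 UMIs they held 37.2% in mouse 1 and 3.79% in mouse 2, so that in both mice most Tbx3 lay in other cells.

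**Figure D1:**
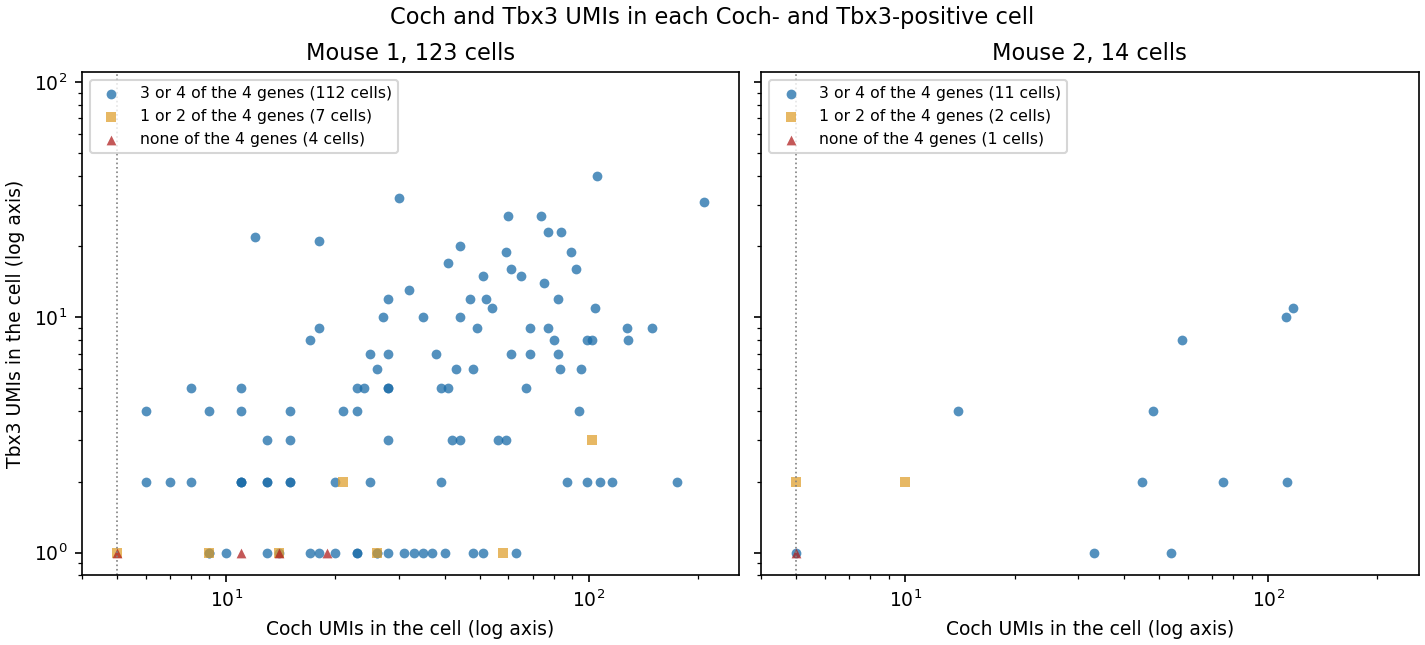
Coch UMIs (x axis) and Tbx3 UMIs (y axis) in each member of mouse 1 (left) and mouse 2 (right), both axes logarithmic, with 1 point per cell, marked by how many of Cntn1, Unc5d, Adgrl3 and Angpt4 the cell held, and a dotted line at 5 Coch UMIs. The 123 members of mouse 1 spread up to 208 Coch UMIs and 40 Tbx3 UMIs, the 14 of mouse 2 up to 117 and 11, and the 4 members of mouse 1 with none of the 4 genes are drawn as red triangles.

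4 genes outside the rule, Cntn1, Unc5d, Adgrl3 and Angpt4, were found at high levels in the members and at low levels in tenocyte-like, chondrocyte-like and fibroblast-like cells. They were singled out after the values were seen, so no test is given for them. Cntn1 encodes contactin, an adhesion molecule of the immunoglobulin family best known from axons. In members it stood at 1684 CPM (1593 to 1779) in mouse 1 and 1461 CPM (1237 to 1713) in mouse 2, against 1.76 and 0.462 CPM in fibroblast-like cells. Unc5d, a receptor for netrins and for FLRT proteins, stood at 1390 CPM (1307 to 1477) and 1935 CPM (1676 to 2222) in members, against 2.25 and 1.52 CPM in fibroblast-like cells. Adgrl3, the adhesion receptor latrophilin 3, stood at 2582 CPM (2469 to 2699) and 1848 CPM (1595 to 2129) in members, against 6.69 and 6.54 CPM. Angpt4, a secreted ligand of the Tie receptors of vessels, stood at 1127 CPM (1052 to 1205) and 803 CPM (640 to 995) in members, against 6.34 and 4.95 CPM. For each of the 4 genes both member sums lay above both sums of fibroblast-like cells, and above those of near-empty barcodes of at most 50 UMIs, a measure of free RNA, where Cntn1 stood at 17.4 CPM in mouse 1 and 4.06 CPM in mouse 2.

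The 4 genes occurred in the same cells. Of 123 members of mouse 1, 94 held a UMI of all 4 genes, 18 of 3, 3 of 2, 4 of 1 and 4 of none. In mouse 2, 8 of 14 held all 4, 3 held 3, and 1 member each held 2, 1 and none. At least 3 of the 4 genes were thus present in 91.1% of members of mouse 1 and 78.6% of those of mouse 2. The same held for 1 of 284 tenocyte-like, 8 of 4717 chondrocyte-like and 2 of 3892 fibroblast-like cells of mouse 1, and for 0 cells of these groups in mouse 2. Among Coch-high cells without a Tbx3 UMI it held for 23 of 73 in mouse 1 and 1 of 25 in mouse 2. These Coch-high cells had a median depth of 3195 and 4080 UMIs, against 5284 and 6198 UMIs in members.

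Thinning lowers the detection of any gene, so the shares below only describe detection at equal depth. Why some members lacked the 4 genes was not tested. In mouse 1 the median depth was 5439 UMIs in the 112 members with at least 3 of the genes. It was 5483 UMIs in the 7 with 1 or 2, and 2782 UMIs in the 4 with none. With each cell thinned to 1000 UMIs, Cntn1 was detected in 73.2% of members of mouse 1 (90.2% unthinned), against 0.402% of immune-rule cells (0.803% unthinned), which should lack it. Median depth was 5284 UMIs in these members and 4052.5 UMIs in these immune-rule cells. Adgrl3 was detected in 82.1% of thinned members (95.9% unthinned), against 0.602% of thinned immune-rule cells (2.01% unthinned). In thinned Coch-high cells without Tbx3 of mouse 1 the shares were 31.5% for Cntn1 and 35.6% for Adgrl3, against 37.0% and 54.8% unthinned. In members of mouse 2 the thinned shares were 50% for Cntn1, 64.3% for Unc5d, 71.4% for Adgrl3 and 21.4% for Angpt4, against 78.6%, 78.6%, 92.9% and 64.3% unthinned.

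The cells near the thresholds of the rule were less uniform, which is given as a description. In mouse 1, at least 3 of the 4 genes were present in 8 of 11 members with 5 to 9 Coch UMIs and in 104 of 112 with 10 or more. They were present in 21 of 30 members with 1 Tbx3 UMI and in 91 of 93 with 2 or more. Just outside the rule, 1 of 43 cells with 1 to 4 Coch UMIs and Tbx3 held at least 3 of the genes, and 1 of 933 cells with Tbx3 and no Coch. In mouse 2 the counts were 1 of 3 members with 5 to 9 Coch UMIs and 10 of 11 with 10 or more, and 1 of 24 cells with Tbx3 and 1 to 4 Coch UMIs. Low Tbx3 counts thus mixed cells with and without the 4 genes in mouse 1.

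**Figure D2:**
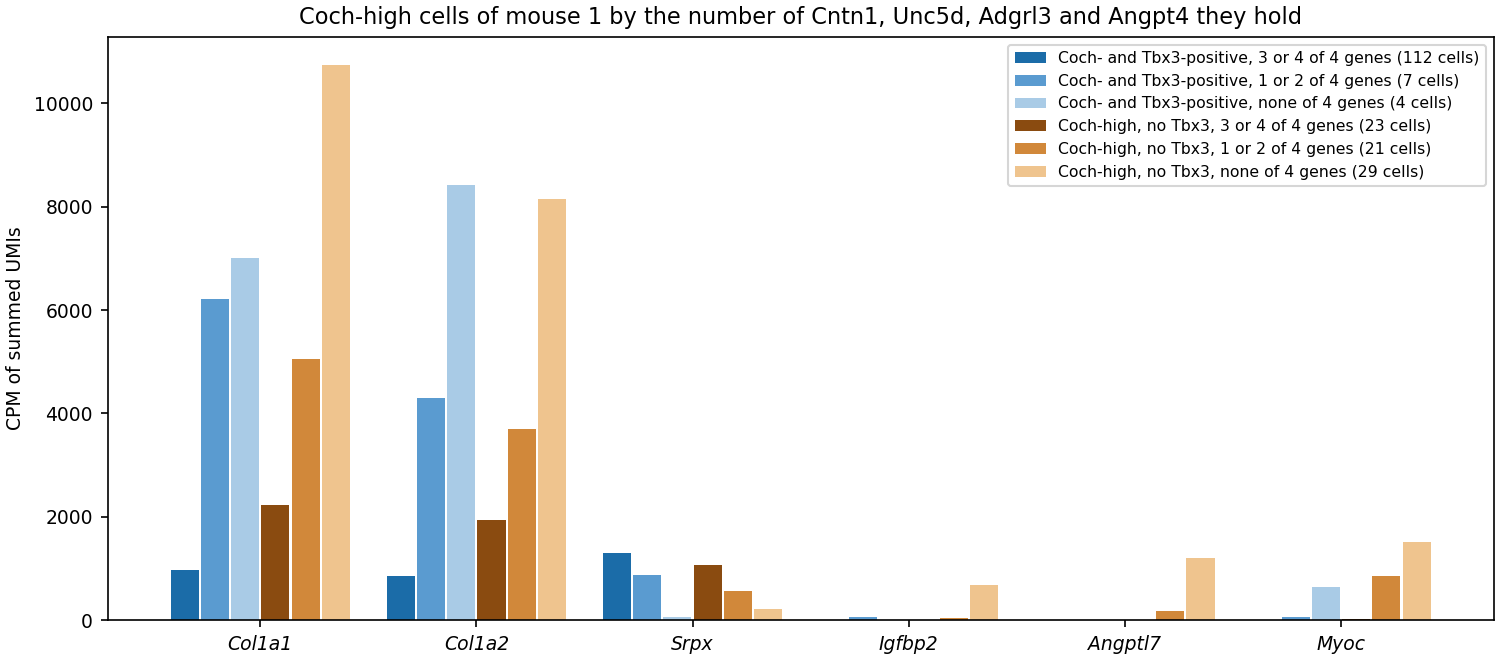
Levels of 6 genes (y axis, CPM of summed UMIs) in mouse 1, for members and for Coch-high cells without Tbx3, each divided by whether the cells held 3 or 4, 1 or 2, or none of Cntn1, Unc5d, Adgrl3 and Angpt4, with 1 bar per group and no error bars since a bar is a single sum. Col1a1 is low in the 112 members with 3 or 4 genes and in the 23 Coch-high cells without Tbx3 with 3 or 4 genes, and high in the 29 Coch-high cells with none.

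Coch-high cells differed in how many of the 4 genes they held, and Col1a1 was lower in those with more of them in mouse 1. In mouse 1, 112 members with at least 3 of the genes had 970 CPM of Col1a1, a chain of type I collagen, 6216 CPM in the 7 with 1 or 2, and 7017 CPM in the 4 with none. The 23 Coch-high cells without a Tbx3 UMI but with at least 3 of the genes had 2221 CPM of Col1a1, against 5048 CPM in the 21 with 1 or 2 and 10751 CPM in the 29 with none. Angptl7, a secreted angiopoietin-like protein, and Myoc, the trabecular meshwork protein myocilin, had 2.84 and 8.53 CPM in the 112 members. In the 29 Coch-high cells with neither Tbx3 nor any of the 4 genes they had 1204 and 1509 CPM, from 13 and 5 of the cells. Srpx, a secreted sushi-repeat protein, ran the other way, with 1294 CPM in the 112 members and 209 CPM in the 29 cells. In the 23 Coch-high cells without Tbx3 but with the genes, Srpx stood at 1073 CPM, Igfbp2 and Angptl7 at 0 UMIs, and the median depth was 2284 UMIs. In mouse 2, Angptl7 stood at 103 CPM (9 UMIs) in the 11 members with at least 3 of the genes and 1434 CPM in the 18 Coch-high cells without Tbx3 and with none, and Srpx at 1222 and 135 CPM. Myoc did not differ that way in mouse 2, with 57.1 CPM (5 UMIs) in these 11 members and 38.5 CPM (4 UMIs) in the 18 cells. These splits were made after the values were seen, and no test was made.

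In mouse 2 a single member with none of the 4 genes held 149 of 243 Col1a1 UMIs and 220 of 255 Col3a1 UMIs of all members. Over the 11 members with at least 3 of the genes, Col1a1 stood at 1074 CPM and Col3a1 at 388 CPM. The higher sums of these collagens in members of mouse 2 than in those of mouse 1 therefore rested on that cell.

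The label calls these cells mesenchymal, and the markers of mesenchyme went against it in part. Dcn, the proteoglycan decorin, was found in all 123 and all 14 members, at 7100 CPM in mouse 1 and 11067 CPM in mouse 2. The fibroblast rule uses Dcn, and it was not particular to mesenchyme-like groups. In mouse 1 it was also found in 96.5% of chondrocyte-like, 76.6% of endothelial-rule and 58.6% of immune-rule cells. Col1a1 stood at 1348 CPM (1266 to 1433) in members of mouse 1 and 2351 CPM (2065 to 2666) in mouse 2, against 16729 and 16208 CPM in fibroblast-like cells, whose rule uses it. Col3a1, a chain of type III collagen that no rule used, stood at 867 and 2467 CPM in members, against 11173 and 10595 CPM in fibroblast-like cells. Vim, the intermediate filament vimentin, stood at 336 CPM (296 to 380) and 445 CPM (326 to 594) in members, against 2340 and 2088 CPM. Col1a1, Col1a2, Col3a1, Lum, Pdgfra, Prrx1 and Vim were lower in members than in fibroblast-like cells and than in near-empty barcodes, in both mice. The list of 10 mesenchyme markers summed to 11371 CPM in members of mouse 1 and 18816 CPM in mouse 2, against 55994 and 51060 CPM in fibroblast-like cells and 22244 and 25513 CPM in near-empty barcodes. Vim is not on that list. Of its 10 markers, 3 in mouse 1 and 2 in mouse 2 stood at or above their level in fibroblast-like cells. Col1a1, Col1a2, Dcn, Lum and Pdgfra are genes of the fibroblast rule, so this count and the list sum partly reflect that rule. Of the 5 markers tested outside it, 0 were higher, 2 (Col3a1 and Prrx1) lower and 3 neither in the edgeR fit. Among all tested genes 10.2% were higher and 11.2% lower. The median log2 difference of the 5 was 0.48, against -0.16 over all genes. Twist1, a mesenchymal transcription factor, stood at 109 and 203 CPM in members, against 83.6 and 59.9 CPM in fibroblast-like cells. Pdgfrb, a growth factor receptor on the list, stood at 470 and 106 CPM in members, against 121 and 149 CPM in fibroblast-like cells. The cells are therefore called here by their rule, as Coch- and Tbx3-positive cells.

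Lists of defining markers of non-mesenchymal cells were mostly low in members, and those of some mesenchymal cells were above free RNA. The periosteum list summed to 2013 and 2825 CPM in members of mouse 1 and mouse 2, against 684 and 887 CPM in near-empty barcodes. Ogn alone gave most of this sum in both mice. In mouse 2 Postn added 687 CPM, all from 1 member, and Ctsk 368 CPM, with 76.3% from 1 member. Of 7 tested genes of the list, 1 (Ogn) was higher and 1 (Angptl7) lower than in fibroblast-like cells in the edgeR fit. These shares are near those of all tested genes (10.2% higher and 11.2% lower). The tenocyte list, which holds Tnmd, summed to 6234 and 6269 CPM in members, against 3957 and 3712 CPM in near-empty barcodes. The 5 endothelial markers summed to 46 and 126 CPM in members of mouse 1 and mouse 2, against 82 and 89 CPM in near-empty barcodes. In mouse 2 that was above free RNA, with 53.8% of these UMIs from 1 member. The 5 immune markers summed to 8 and 10 CPM in members, against 196 and 173 CPM in near-empty barcodes. The Schwann cell markers summed to 69 and 19 CPM in members, against 431 and 475 CPM. The epithelial markers summed to 34.4 and 0 CPM in members, against 54.8 and 74.7 CPM in near-empty barcodes, with 88.5% from 1 member in mouse 1. The olfactory neuron markers summed to 5.30 and 0 CPM in members, against 4.21 and 4.51 CPM in near-empty barcodes. Omp, which marks mature olfactory neurons, was at 0 UMIs in members of both mice. The inner ear fibrocyte list summed to 7542 and 6820 CPM in members, against 182 and 105 CPM in near-empty barcodes, but it holds Coch itself. Of its other genes, Otos, Car3, Gjb2, Gjb6 and Otor were at 0 UMIs in both mice, while Pou3f4, a POU-domain factor needed in inner ear mesenchyme, stood at 55.6 and 87.1 CPM in members, against 3.66 and 2.18 CPM in fibroblast-like cells. The rules of other groups were also met by some members: in mouse 1 by 23 of 123 for fibroblast-like, 8 for tenocyte-like, 7 for chondrocyte-like and 2 for endothelial cells and 1 each for pericyte or smooth muscle and for epithelial cells, and in mouse 2 by 2 of 14 for fibroblast-like, 2 for endothelial and 1 for tenocyte-like cells. Whether doublets contributed was not tested; 19 of 123 members of mouse 1 and 0 of 14 of mouse 2 were among the cells with the highest doublet scores, which made up 11.3% and 7.74% of cells.

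**Figure D3:**
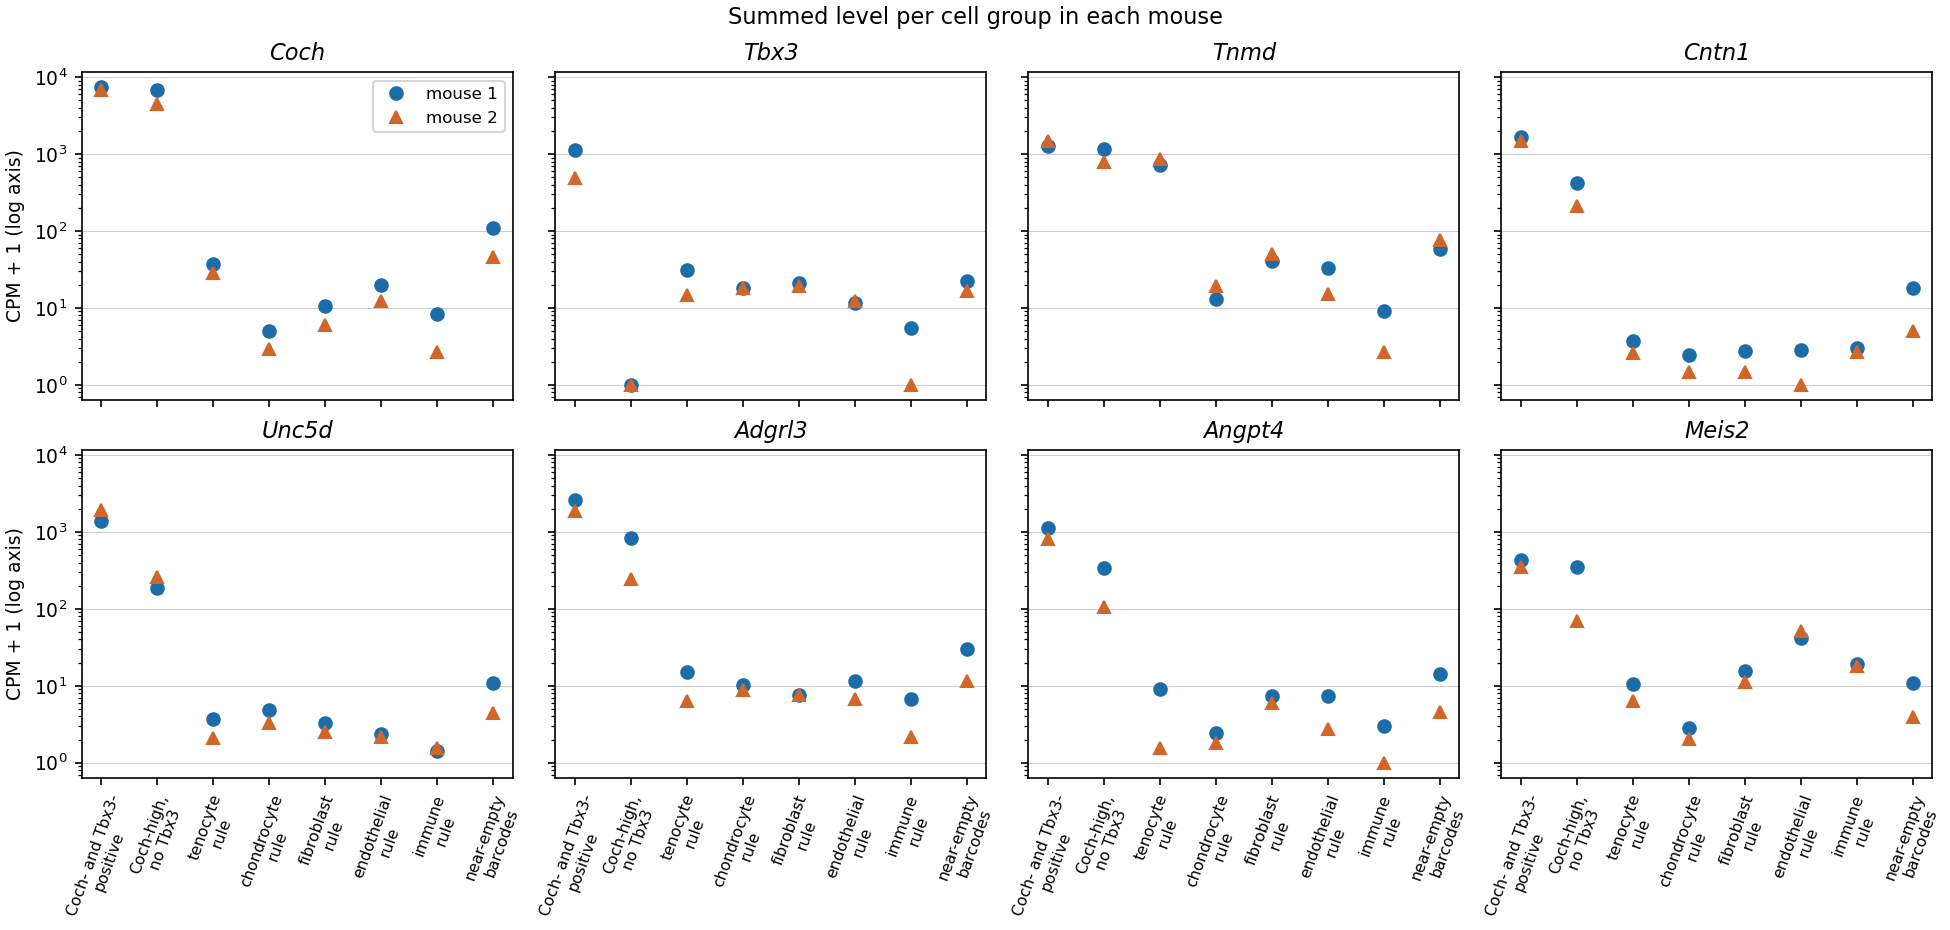
Levels of 8 genes (y axis, CPM + 1, logarithmic) in members, Coch-high cells without Tbx3, cells of the tenocyte, chondrocyte, fibroblast, endothelial and immune rules, and near-empty barcodes, with 1 point per mouse and group. For Cntn1, Unc5d, Adgrl3 and Angpt4 the points of the members lie highest in both mice, followed by those of Coch-high cells without Tbx3.

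Against fibroblast-like cells, members of mouse 1 were at least 4-fold higher in 283 of 4123 genes (6.86%) and at least 4-fold lower in 291 (7.06%). Past the same fold in mouse 2 were 164 and 181 of these genes. In the added edgeR fit 1465 of 14306 genes were higher (10.2%) and 1609 lower (11.2%), and the median log2 difference over all genes was -0.16. It called 736 genes in all without mouse 1 and 2038 without the mouse block. Of the 283 higher genes, 47 fell below the fold once the member with most UMIs of each gene was left out. The 12 named higher genes included 3, Scgb2b27, Scgb1b27 and Wfdc18, that were carried almost wholly by 1 member of mouse 1, and none of these passed the fold in mouse 2.

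Among transcription factors, a few were higher and more were lower in the edgeR fit. Meis2, a homeobox cofactor of limb, heart and cranial neural crest, stood at 425 CPM (380 to 474) and 348 CPM (244 to 482) in members, against 14.4 and 10.2 CPM in fibroblast-like cells. That was a log2 difference of 4.78 ± 0.29 (SE, edgeR adjusted p = 4.276e-12), and the groups did not overlap. Its relative Meis1 stood at 55.6 and 58.0 CPM in members, against 9.71 and 9.91 CPM (edgeR adjusted p = 8.367e-06). Tbx15, a T-box factor of the skull and limb skeleton, stood at 168 and 242 CPM in members, against 60.6 and 62.3 CPM (log2 difference 1.44 ± 0.33, edgeR adjusted p = 0.005111). Of 24 tested craniofacial factors 3 were higher and 9 lower (10.2% and 11.2% of all tested genes were), the lower ones including Msx1, Alx1, Pax1 and Pax7, factors of facial and axial skeleton. Only 6 of the 40 listed had at least 50 CPM in 1 of both groups in mouse 1. Of these 6, 2 were at least 4-fold higher (Meis1 and Meis2), 2 lower (Alx1 and Msx1) and 2 within. Pax1 and Pax7 were not among the lower ones there. The median log2 difference of the 6 was 0.36, against 0.20 over all genes at that limit. Of 29 fibroblast and skeletal factors 3 were higher, a share like that of all genes, and 12 lower. Ebf1, a factor of mesenchymal precursors, stood at 78.1 and 67.7 CPM in members, against 705 and 566 CPM (edgeR adjusted p = 1.197e-07), and Ebf2 at 1.32 and 0 CPM, against 59.1 and 72.3 CPM.

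Matrix genes were found on both sides, beside 10.2% higher and 11.2% lower among all tested genes. Of 12 small leucine-rich proteoglycans tested, which bind collagen fibrils, Ogn, Kera, Fmod and Ecm2 were higher and Bgn, Podn and Prelp lower. Ogn, osteoglycin, stood at 1703 CPM (1611 to 1798) and 1625 CPM (1389 to 1890) in members, against 121 and 77.0 CPM in fibroblast-like cells (log2 difference 3.93 ± 0.31, edgeR adjusted p = 5.344e-10). Kera, the corneal and tendon proteoglycan keratocan, stood at 380 and 397 CPM in members, against 12.5 and 21.2 CPM (4.46 ± 0.33, edgeR adjusted p = 2.86e-10). Bgn, biglycan, stood at 244 and 368 CPM, against 1308 and 1495 CPM (-2.40 ± 0.27, edgeR adjusted p = 1.539e-07). Over all 12 the median log2 difference was -0.46, against -0.16 over all genes.

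Elastic fibre genes were mostly lower, while 14 of 32 collagens were, beside 11.2% of all tested genes. Higher genes made up 10.2% of all tested genes, and their shares in the lists below were near or below that. Of 17 elastic fibre and microfibril genes 11 were lower and 1, the crosslinking enzyme Lox, higher, with a list median of -2.20 on the log2 scale. Fbn1, the microfibril backbone fibrillin, stood at 99.3 and 116 CPM in members, against 812 and 858 CPM in fibroblast-like cells (edgeR adjusted p = 1.096e-08). Eln, elastin, stood at 138 and 193 CPM in members, against 915 and 1683 CPM (edgeR adjusted p = 2.484e-08). Of 15 fibrillar and fibril-associated collagens 6 were lower, 2 higher and 7 neither, with a list median of -0.007, and of 17 other collagens 8 were lower and 1 higher. Col24a1, a minor fibrillar collagen known from developing bone, was 1 of the higher ones, at 242 CPM (209 to 280) and 406 CPM (293 to 549) in members, against 1.69 and 2.71 CPM (6.98 ± 0.46, edgeR adjusted p = 5.415e-07). Of 18 matricellular proteins 9 were lower, Sparc among them at 2888 and 2951 CPM against 12516 and 15558 CPM, while Sparcl1 was higher at 438 and 387 CPM against 58.1 and 49.3 CPM. Fbn1, Eln, Bgn and Sparc were also lower in members than in near-empty barcodes of the same mouse.

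Signalling genes differed in both directions, beside 10.2% higher and 11.2% lower among all tested genes. Of 12 secreted Wnt antagonists 4 were higher and 3 lower. Apcdd1, a membrane-bound Wnt inhibitor, stood at 136 and 348 CPM in members, against 46.8 and 41.5 CPM in fibroblast-like cells (edgeR adjusted p = 1.538e-06). Sulf1, an extracellular sulfatase that trims heparan sulfate and thereby tunes Wnt, BMP and FGF signals, stood at 3301 CPM (3173 to 3433) and 2515 CPM (2219 to 2840) in members, against 202 and 178 CPM (log2 difference 3.72 ± 0.45, edgeR adjusted p = 7.68e-05). Igf1 stood at 734 and 958 CPM in members, against 156 and 99.1 CPM (edgeR adjusted p = 3.58e-08), while 6 of 14 genes of the insulin-like growth factor system were lower, Igfbp6 among them. The growth factors Mdk and Ptn, a related pair that binds heparin, were both higher: Mdk stood at 832 and 474 CPM in members, against 55.2 and 62.4 CPM. Of 10 Hedgehog pathway genes 5 were lower, among them the receptor-side proteins Gas1, Boc and Cdon, and the other 5 did not pass in either direction in the edgeR fit. Of 15 genes of the TGF-beta system 6 were lower, among them the receptor Tgfbr2 and the latent binding protein Ltbp1, and the other 9 did not pass.

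Axon guidance genes gave 8 higher and 6 lower of 32, beside 10.2% higher and 11.2% lower among all tested genes. Nrp2, a receptor of semaphorins and vascular growth factors, stood at 564 and 658 CPM in members, against 50.3 and 36.1 CPM in fibroblast-like cells (3.64 ± 0.25, edgeR adjusted p = 2.769e-11). Epha4, a receptor of ephrins, stood at 111 and 116 CPM, against 11.5 and 12.7 CPM (edgeR adjusted p = 7.125e-09). The ligands Slit3 and Sema3c were lower, Slit3 at 54.3 and 38.7 CPM in members, against 454 and 406 CPM. Aldh1a3, which makes retinoic acid, stood at 144 and 96.7 CPM in members, against 12 and 7.59 CPM, 1 higher of 14 tested genes of that system, a share below that of all genes (10.2%). All 8 markers of adventitial fibroblasts were lower, and Clec3b, a plasminogen-binding protein, stood at 118 and 116 CPM in members, against 2009 and 1818 CPM. Of 11 chemokines 6 were lower and 5 did not pass, and of 13 complement genes 9 were lower and 4 did not pass. C3, the central complement protein, stood at 27.8 and 0 CPM in members, against 461 and 299 CPM (edgeR adjusted p = 3.492e-09).

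**Figure D4:**
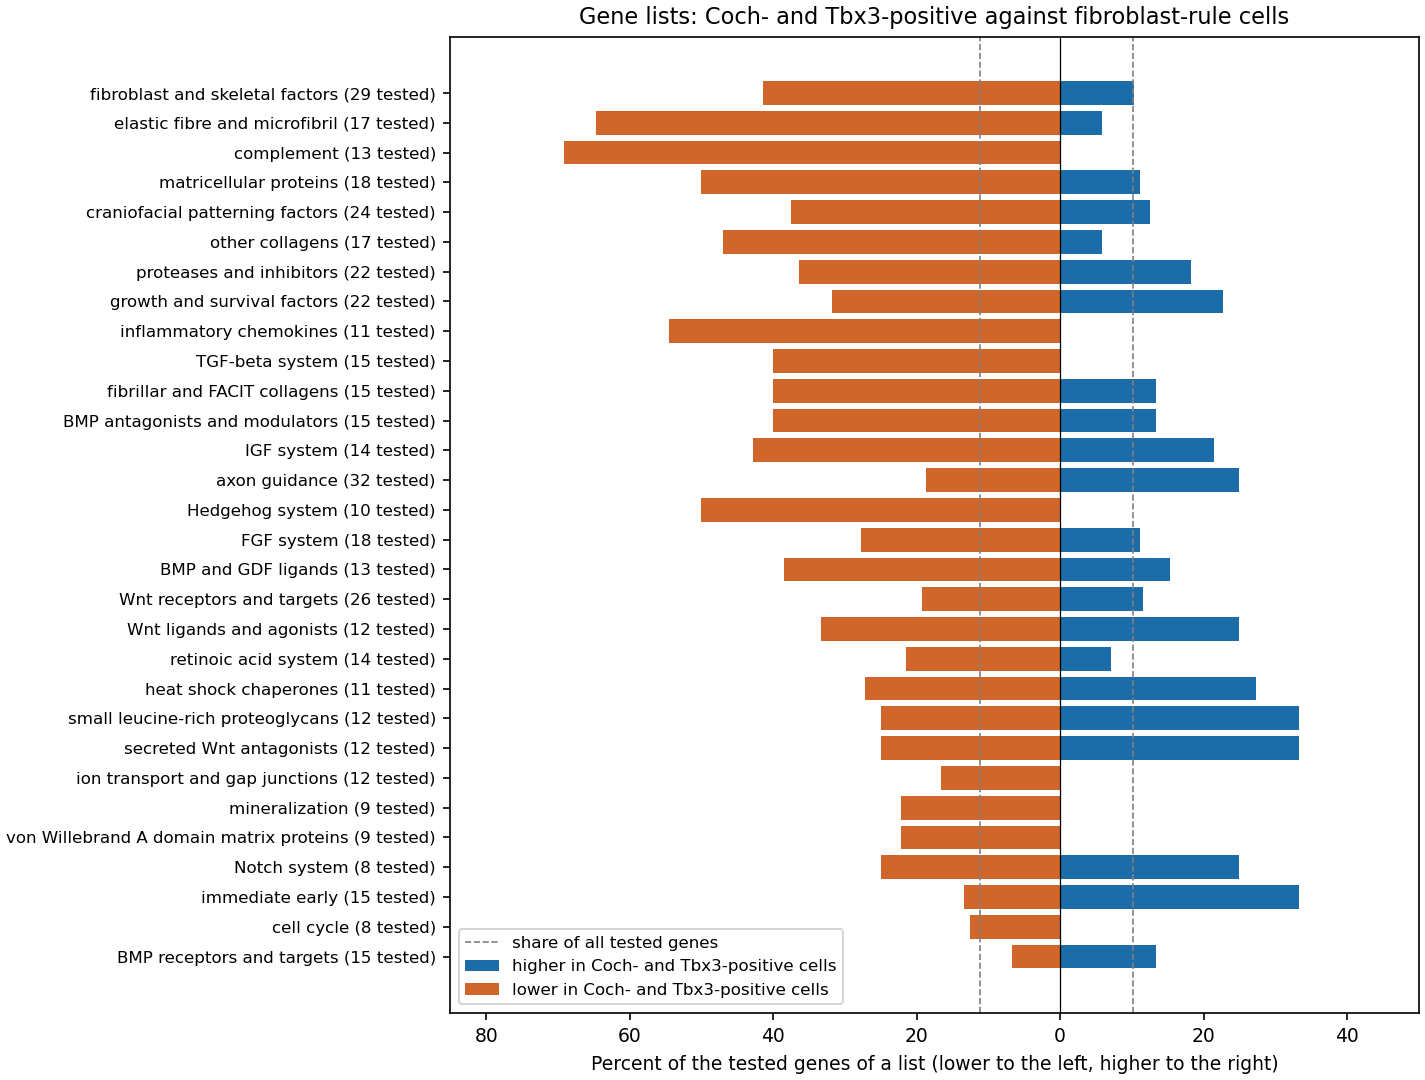
Share of the tested genes of each list (x axis, percent) that were higher (right) or lower (left) in members than in fibroblast-like cells at an adjusted p of 0.05 in the edgeR fit over both mice, for lists with at least 8 tested genes, with dashed lines at the shares over all tested genes (10.2% higher and 11.2% lower). Elastic fibre genes gave 11 lower and 1 higher of 17, and axon guidance genes 8 higher and 6 lower of 32.

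Against tenocyte-like cells, which share Tnmd with the members, 281 of 4184 genes were at least 4-fold higher in mouse 1 (6.72%) and 297 lower (7.1%), of which 175 and 167 passed the fold in mouse 2. The edgeR fit called 1279 higher (8.94%) and 1465 lower (10.2%), and 779 in all without mouse 1. Kera stood at 380 and 397 CPM in members, against 355 and 531 CPM in tenocyte-like cells, a log2 difference of -0.28 ± 0.29 (edgeR adjusted p = 0.5425). Scx, the tendon transcription factor scleraxis, stood at 1.32 and 0 CPM in members, against 40.0 and 58.2 CPM (edgeR adjusted p = 6.743e-05). Tnc, the matrix protein tenascin-C, stood at 6.62 and 0 CPM in members, against 123 and 110 CPM (edgeR adjusted p = 2.51e-07). Fmod, fibromodulin, stood at 1729 and 2380 CPM in members, against 3391 and 4400 CPM (-1.12 ± 0.25, edgeR adjusted p = 0.001885). Of 8 tested tenocyte markers 6 were lower and 1, the inducible factor Egr1, higher. Meis2 and Sulf1 were also higher than in tenocyte-like cells, Meis2 at 425 and 348 CPM against 9.5 and 5.34 CPM.

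Against chondrocyte-like cells, 313 of 4137 genes were at least 4-fold higher in mouse 1 (7.57%) and 409 lower (9.89%), of which 218 and 329 passed the fold in mouse 2. The edgeR fit called 1293 higher (9.04%) and 2012 lower (14.1%), and 1357 in all without mouse 1. All 8 tested cartilage markers were lower in it. Sox9, the master factor of cartilage, stood at 164 and 38.7 CPM in members, against 1461 and 1208 CPM in chondrocyte-like cells (edgeR adjusted p = 2.1e-06). Cnmd, chondromodulin, the closest relative of Tnmd, stood at 92.7 and 58.0 CPM, against 1767 and 2208 CPM (edgeR adjusted p = 3.242e-11). The chondrocyte list summed to 1337 and 561 CPM in members, below the 10122 and 9689 CPM of near-empty barcodes.

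Coch-high cells without a Tbx3 UMI lie just outside the rule, and a Tbx3 UMI can be missed. They gave the fewest genes past the fold in mouse 1 and the fewest calls in the edgeR fit of the 4 comparisons, but the most in mouse 2 alone and, with 4039 genes, without a filter on low counts. Of 4267 genes 101 were at least 4-fold higher in members of mouse 1 (2.37%) and 179 lower (4.19%), of which 54 and 73 passed the fold in mouse 2. With DESeq2 size factors, which moved every log2 difference of this comparison by 0.26, the split was 137 higher and 121 lower. The edgeR fit called 387 higher (2.71%) and 326 lower (2.28%), with 460 in all without mouse 1, 1207 without mouse 2 and 171 without the mouse block. In mouse 2 alone 1023 genes were past the fold, against 684 for fibroblast-like, 727 for tenocyte-like and 939 for chondrocyte-like cells. Igfbp3, a binding protein of insulin-like growth factors, stood at 6.62 and 0 CPM in members, against 422 and 458 CPM (edgeR adjusted p = 4.058e-09), and in mouse 1 the Coch-high cells held 68 of its UMIs in 1 cell and 63 in 5 others. Myoc stood at 23.8 and 48.4 CPM in members, against 902 and 503 CPM (-4.58 ± 0.38, edgeR adjusted p = 8.811e-09), which came from 10 of 73 and 5 of 25 cells. Lef1, a transcription factor of the Wnt pathway, stood at 1.32 and 9.67 CPM, against 74.1 and 30.0 CPM (edgeR adjusted p = 0.001513). In the other direction, Sulf1 stood at 3301 and 2515 CPM in members, against 1037 and 173 CPM (2.43 ± 0.44, edgeR adjusted p = 0.009039). Meis2 stood at 425 and 348 CPM, against 348 and 67.6 CPM, and did not pass (0.88 ± 0.29, edgeR adjusted p = 0.08539).

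**Figure D5:**
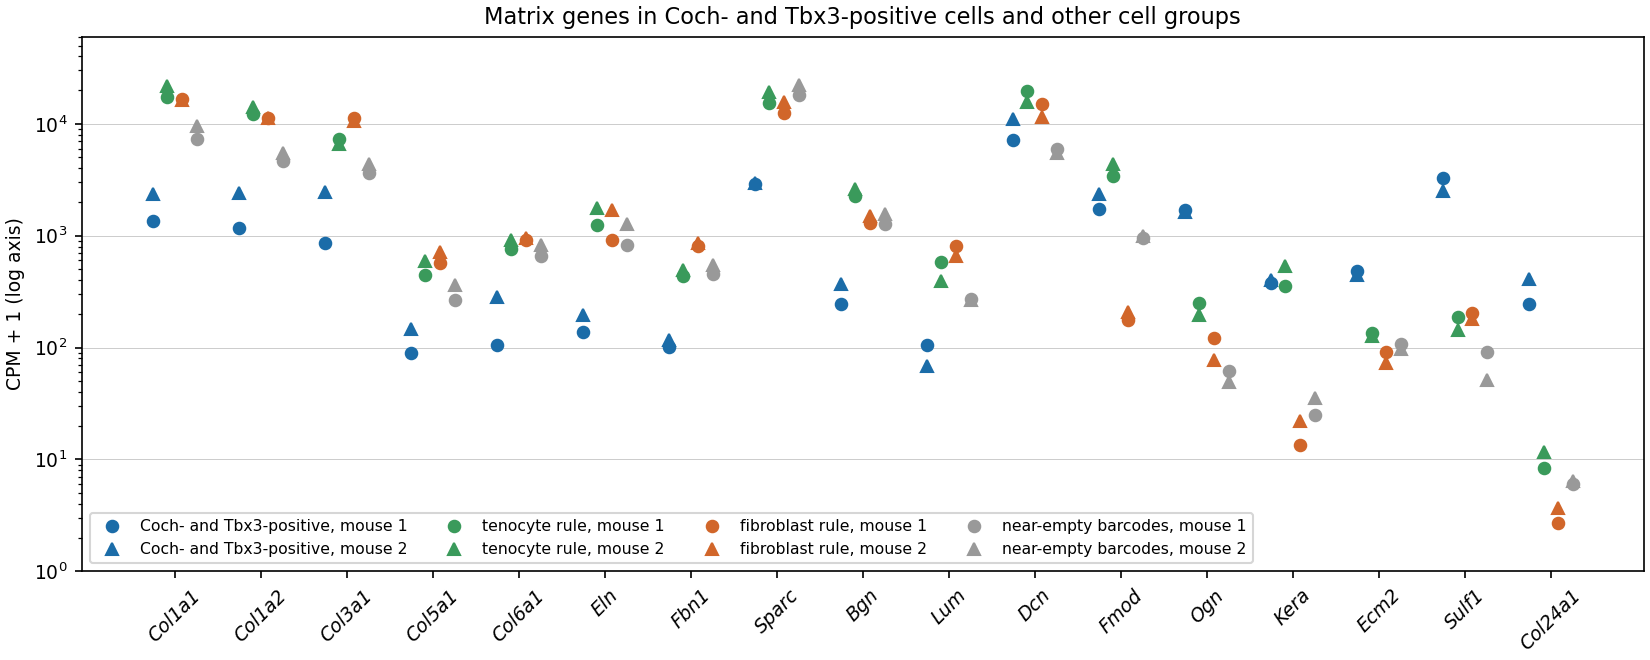
Levels of 17 genes of the extracellular matrix and its modifiers (y axis, CPM + 1, logarithmic) in members, tenocyte-like cells, fibroblast-like cells and near-empty barcodes, with 1 point per mouse and group. In both mice Fbn1, Eln, Bgn and Sparc lie lower in members than in fibroblast-like cells, and Ogn, Kera, Fmod, Sulf1 and Col24a1 higher.

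The genes most like Coch in level over the cell groups were ranked in 18 sums (9 groups from 2 mice, 7194 genes, Pearson correlation of log2(CPM + 1)). Members and Coch-high cells without Tbx3, 4 of the 18 sums, were picked for at least 5 Coch UMIs, so any gene high in them ranks high, and the correlations only describe that choice. The nearest were Cntn1 (r = 0.965), Scfd1 (0.953), Sapcd1 (0.95), Gm26760 (0.943), Unc5d (0.937), Adgrl3 (0.928), Vwa7 (0.926), Pcdh15 (0.924), Angpt4 (0.923) and Pou3f4 (0.919). Scfd1 reached 91.4 and 106 CPM in members, against 80.5 and 82.6 CPM in Coch-high cells without Tbx3 and 46.8 and 38.9 CPM in tenocyte-like cells. Pcdh15, a protocadherin of the hair cell tip link, stood at 82.1 and 126 CPM in members, against 22.5 and 37.5 CPM in Coch-high cells without Tbx3. In a GRCm38 annotation Gm26760 lies beside Cntn1 on the same strand without overlapping it, and Sapcd1 overlaps Vwa7 on the opposite strand. Whether reads of 1 gene of a pair were counted for the other was not tested. Tbx3 itself overlaps Tbx3os1 on the opposite strand.

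Between the members of the 2 mice, 398 of 4093 genes with at least 50 CPM in 1 mouse were more than 4-fold apart, and the levels correlated with r = 0.628 across genes, which are not replicates. Over the 1872 genes with at least 10 UMIs in both, a filter that leaves out genes high in 1 mouse alone, r was 0.853 and 56 genes were that far apart. Flnc, the actin-binding protein filamin C, stood at 1508 CPM in members of mouse 1 and 358 CPM in mouse 2. Cytl1, a small secreted protein of cartilage, stood at 1539 and 281 CPM, but 1 member held 62.2% of its UMIs in mouse 1. Postn, the matrix protein periostin, stood at 21.2 and 687 CPM, and in mouse 2 all of its UMIs came from 1 member.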

How the data were processed

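Single-cell libraries from 2 mice were analysed, 1 library each. Whole-number counts for 56953 genes in every listed barcode were deposited as unnormalized matrices and taken here to be UMI counts. The submitters' processing notes name STAR, Cell Ranger 7.0.0 and GRCm39 with no roles. No source used here gives the annotation release. The members and gene lists were chosen with earlier results of these data known. The tables list 575908 and 610731 barcodes for mouse 1 and mouse 2, so cells were called here by the limits given above (at least 1000 UMIs, 300 genes, at most 15% mitochondrial UMIs). Doublets were kept, and cells of the highest Scrublet scores (scanpy 1.11.5, 0.8% per 1000 cells) were left out as an alternative. Barcodes of at most 50 UMIs, 399023 and 465274, gave a measure of free RNA.

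UMIs were summed per mouse and group, and each cell entered 1 group. The planned test needed 20 members per mouse, and mouse 2 gave 14, so the planned result became a description, with Poisson 95% intervals that cover counting error only. The mouse is a block because its groups were taken from 1 animal. The added fit used edgeR 4.0.16 (TMM, filterByExpr, robust quasi-likelihood test, 4 residual degrees of freedom) in R 4.3.3. Benjamini-Hochberg adjustment ran over 14306 genes with a threshold of 0.05, and DESeq2 1.42.0 was an alternative. On simulated data for the comparison with fibroblast-like cells, the fit recovered 117 of 200 changed genes and called 5 unchanged ones. A gene that did not pass may therefore still differ. The simulated sums shared the means of fibroblast-like cells, with no other difference between groups or mice and no gene carried by 1 cell. Changes were put only in genes with enough counts in members of mouse 1. The number of unchanged genes called there thus does not carry over to the real sums. The fit compares sums of cells from 2 animals, and the mouse block takes out the average difference between them. Its p-values therefore measure how far group differences disagreed between these 2 animals, pooled over the 5 groups, and not the spread between animals. Named genes are the 12 largest folds in each direction with at least 50 CPM, up to 4 members per list past the threshold, and defining markers. Further genes, such as Vim, Srpx, Cytl1, Flnc, Postn and more members of a list, were chosen after their values were seen. Of 666 list symbols 664 were matched. Tests were not made where members were split or singled out by value. Python 3.11.15, numpy 2.4.6, scipy 1.17.1, pandas 2.3.3 and matplotlib 3.10.9 were used.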

Additional observations from a re-analysis of the deposited data

How the results depend on the processing

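Counts past the fold in mouse 1 kept within 1.5 times of their value (574 against fibroblast-like, 280 against Coch-high, 578 against tenocyte-like and 722 against chondrocyte-like cells) under the other alternatives run, with these exceptions. Without a filter on low counts they were 2018, 4039, 2281 and 2023 in that order. Against Coch-high cells without Tbx3 the count was 503 among cells of at least 4000 UMIs and 474 without the highest Scrublet scores. Leaving out each mouse gave 574 to 684 against fibroblast-like, 280 to 1023 against Coch-high, 578 to 727 against tenocyte-like and 722 to 939 against chondrocyte-like cells. The share of members in mouse 1 was 0.658% with at least 2 Tbx3 UMIs. The edgeR fit with the 14 members of mouse 2 called 3074, 713, 2744 and 3305 genes in the same order. Without the replicate block it called 2038, 171, 1856 and 2371, with the 2 compared groups alone 1524, 288, 1637 and 1744, and leaving out each mouse gave 736 to 2494, 460 to 1207, 779 to 2396 and 1357 to 3134, where a lone sum is assumed to vary like the other groups. DESeq2 size factors moved log2 differences by 0.067 against fibroblast-like, 0.26 against Coch-high, 0.073 against tenocyte-like and -0.12 against chondrocyte-like cells.

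A few of the named genes changed sign. Without the member with most UMIs of the gene, an alternative chosen after seeing the data, log2 differences became -0.64, -2.08, -0.75 and -0.54 for Scgb2b27 in the order above, -0.44 and -0.35 for Wfdc18 against fibroblast-like and chondrocyte-like cells, and -2.08, -1.89 and -1.59 for Ltf against Coch-high, tenocyte-like and chondrocyte-like cells. These genes were carried by 1 cell. Without mouse 1 they were -0.092 and -0.080 for Wfdc18 against fibroblast-like and chondrocyte-like cells, -4.00 for Ap4e1 and 4.35 for Prtg against Coch-high cells, and -2.07 and -4.66 for Ltf against tenocyte-like and chondrocyte-like cells, and the cause was not tested. The 14 members of mouse 2 limit every level there, since 3 UMIs are 29.0 CPM.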

Other observations

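Some genes of the early response to stimulation were higher in the members. Junb, a subunit of the AP-1 factor, stood at 2999 CPM in members of mouse 1 and 2254 CPM in mouse 2, against 889 and 697 CPM in fibroblast-like cells (log2 difference 1.56 ± 0.37, edgeR adjusted p = 0.006637) and 1069 and 315 CPM in Coch-high cells without Tbx3 (2.02 ± 0.39, edgeR adjusted p = 0.007011). Of 15 immediate early genes tested, 5 were higher (Egr2, Btg2, Junb, Zfp36 and Egr1) and 2 lower (Klf2 and Atf3) than in fibroblast-like cells, beside 10.2% higher and 11.2% lower among all tested genes. Against chondrocyte-like cells 1 was higher (Egr2) and 5 were lower (Ier3, Atf3, Klf2, Nr4a1 and Jun), beside 9.04% and 14.1% among all tested genes. Hsp90aa1, a heat shock chaperone, stood at 1139 and 1258 CPM in members, against 302 and 245 CPM in fibroblast-like cells (1.96 ± 0.26, edgeR adjusted p = 2.333e-06), and 3 of 11 chaperones were higher and 3 lower. Such genes are known to respond to tissue digestion, and the part of digestion in these values was not tested.

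Snhg11 stood at 241 CPM in members of mouse 1 and 145 CPM in mouse 2, against 1.48 and 2.44 CPM in fibroblast-like cells (6.48 ± 0.38, edgeR adjusted p = 3.544e-12), and was found in 56 and 4 members. 1700030N03Rik stood at 429 and 426 CPM in members, against 9.66 and 7.51 CPM in Coch-high cells without Tbx3 (5.69 ± 0.48, edgeR adjusted p = 1.069e-08), and was found in 30 of 123 and 2 of 14 members. Of the UMIs of 1700030N03Rik in members of mouse 2, 72.7% came from 1 cell. Prss35, a serine protease homologue, stood at 156 and 145 CPM in members, against 0.704 and 0.330 CPM in fibroblast-like cells (8.11 ± 0.77, edgeR adjusted p = 4.559e-05). Dbpht2 and 1700086L19Rik, which are neighbours on 1 strand in a GRCm38 annotation, were both high in members, Dbpht2 at 128 and 155 CPM against 0.282 and 0.396 CPM in fibroblast-like cells, but Dbpht2 was found in only 17 of 123 and 1 of 14 members. 1700086L19Rik was found in 23 and 2 members, with 97.1% of its UMIs in mouse 2 from 1 cell.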
